A study of Homo sapiens with 18 samples.

Results

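The 10 genes described here encode amino acid transporters of the plasma membrane that are known targets of ATF4 or are often named with them: *SLC7A11*, *SLC7A5*, *SLC3A2*, *SLC7A1*, *SLC7A6*, *SLC1A4*, *SLC1A5*, *SLC38A1*, *SLC38A2* and *SLC6A9*. They were chosen by name, as 10 of the 45372 gene symbols of the expression table, and each was followed in all 18 libraries. RNA sequencing was performed on MV4-11 and THP1 (written THP-1 in the labels), established lines of acute myeloid leukemia (AML) in which *KMT2A* is rearranged. Each line had 3 groups of 3 libraries: a DMSO vehicle control and exposures of 8 h or 24 h to IACS-010759 (IACS), which inhibits mitochondrial complex I, at 50 nM. Neither the labels nor the methods say how long the DMSO cells were held, and its only 3 DMSO libraries were set against the 8 h and the 24 h libraries of a line, so both changes share their controls. Each comparison within a line holds for that line alone.

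ATF4 is the transcription factor that the integrated stress response brings into play when eIF2α is phosphorylated. Its targets include enzymes that make amino acids, tRNA synthetases that load them, and transporters that bring them into the cell. Several of these transporters work as pairs: SLC3A2 (CD98 heavy chain, 4F2hc) carries a light chain to the cell surface, where SLC7A5 (LAT1) exchanges large neutral amino acids such as leucine, SLC7A6 (y+LAT2) exchanges cationic for neutral amino acids, and SLC7A11 (xCT) takes up cystine in exchange for glutamate. SLC7A1 (CAT1) carries arginine and lysine and needs no heavy chain. SLC1A4 (ASCT1) and SLC1A5 (ASCT2) exchange small neutral amino acids, glutamine among them for ASCT2, SLC38A1 (SNAT1) and SLC38A2 (SNAT2) take up glutamine, alanine and other neutral amino acids together with sodium, and SLC6A9 (GlyT1) takes up glycine.

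In the GRCh38 annotation of GENCODE release 44 the chain genes lie apart from each other, *SLC3A2* at chr11:62856004-62888880 (plus strand), *SLC7A5* at chr16:87830023-87869507 (minus), *SLC7A6* at chr16:68264516-68301823 (plus) and *SLC7A11* at chr4:138164097-138242349 (minus). *SLC38A1* (chr12:46183063-46270017) and *SLC38A2* (chr12:46358188-46372773) lie near each other on the minus strand. The others are *SLC7A1* at chr13:29509414-29595688 (minus), *SLC1A4* at chr2:64988477-65023865 (plus), *SLC1A5* at chr19:46774883-46788594 (minus) and *SLC6A9* at chr1:43991500-44031467 (minus). The values below are for whole genes and do not separate their isoforms.

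ATF4 pairs with C/EBP factors on a composite element, which was searched as TGATGNAA on both strands of the RefSeq promoters (GRCh38.p14, 250 bases before to 50 after a start). The table holds promoters of 9 of the 10 genes, 15 in all, and none of *SLC7A11*. 5 of these 15 promoters held the letters, in 5 of the 9 genes, against 3.62% of all 35116 promoters and 4.46% of all 27305 genes, and genes with several promoters have more chances to hold them. The 5 matches are shown because they are where the element's letters lie in these genes, with *CHAC1* and *ASNS*, ATF4 targets that are not transporters, for comparison. Each line gives 30 bases of the gene's own strand, 5′ to 3′, with the letters of the element, or their reverse complement where the match is on the opposite strand, in capitals.
SLC3A2, chr11:62881719-62881748, plus strand: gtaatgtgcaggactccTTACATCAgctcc
SLC7A1, chr13:29595663-29595692, minus strand: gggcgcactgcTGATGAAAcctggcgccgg
SLC1A4, chr2:64989381-64989410, plus strand: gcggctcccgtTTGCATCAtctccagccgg
SLC1A5, chr19:46784893-46784922, minus strand: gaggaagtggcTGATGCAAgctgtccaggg
SLC38A1, chr12:46266502-46266531, minus strand: tcagacccgaaTGATGAAAagggatcagct
CHAC1, chr15:40953251-40953280, plus strand: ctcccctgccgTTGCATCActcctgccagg
ASNS, chr7:97872458-97872487, minus strand: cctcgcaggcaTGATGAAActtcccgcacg
In *SLC1A5* the match began 97 bases before a start, in *SLC38A1* and *SLC1A4* it spanned one, and in *SLC7A1* and *SLC3A2* it lay after one, at bases 8 to 15 and 38 to 45. The *SLC1A4*, *SLC1A5*, *SLC38A1* and *SLC3A2* matches lay each in only 1 of that gene's 2 or 3 promoters. No match was found in the promoters of *SLC7A5*, *SLC7A6*, *SLC38A2* and *SLC6A9*, which says only that these letters are not in those windows. A match describes the letters and not binding, which was not measured here.

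The values are TPM, in which the reads of a gene are divided by the length set for that gene and each library is set to the same total. Levels can be compared between genes only as far as that length fits the transcripts in use, which was not tested. Whole reads could be recovered from the TPM for 14817 of 14916 genes, with sums per library of 19917538 to 26504247 reads (median 22174917), and for all 10 transporters. All 9 markers of myeloid and *KMT2A*-rearranged leukemia cells averaged 1 TPM or more in MV4-11 and 8 of 9 in THP1, where *MEIS1* was below it, and the 3 T cell, 3 erythroid and 3 fibroblast markers were all below 1 TPM in both lines. Of the 3 B cell and 3 epithelial markers 1 of each (*CD79A*, *KRT18*) reached 1 TPM in MV4-11 and none in THP1. 5 abundant noncoding RNAs took 39.6% to 60.1% of the TPM of a library (median 49.6%). Their share was 55.8% to 60.1% in the 3 THP1 libraries numbered 3 and 46.3% to 54.5% in the other 6 THP1 libraries, and 9 of the 10 transporters were lowest in replicate 3 in each of the 3 THP1 groups. In TPM without these 5 RNAs the median log2 fold change of all genes in THP1 was -0.02 at 8 h and 0.02 at 24 h, against -0.12 at both times with them. Limma then called (as defined below) 0 of the 9 tested transporters at either time, beside 2 of 15728 genes at 8 h and 92 at 24 h. Whether that share caused any of the results on THP1 was not tested. The THP1 changes of the 9 tested transporters are given also on values scaled by the median of ratios.

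*SLC1A5* was the most abundant of the 10 transcripts in the DMSO cells of both lines, at 145 ± 14.2 TPM (SD, n = 3) in MV4-11 and 80.9 ± 11.4 TPM in THP1. In MV4-11 it was followed by *SLC7A5* at 67.1 ± 5.97 TPM and then by *SLC7A1*, *SLC3A2*, *SLC38A2* and *SLC1A4* at means of 38.3 to 49.1 TPM, of which no neighbours in the order differed beyond their spread. *SLC7A6* stood lower at 21.4 ± 2.28 TPM, and *SLC38A1* at 4.15 ± 1.05 TPM and *SLC7A11* at 2.70 ± 0.869 TPM overlapped each other. In THP1 *SLC38A2* came second at 62.0 ± 3.75 TPM. *SLC7A1*, *SLC38A1*, *SLC3A2* and *SLC7A5* followed at means of 28.0 to 48.6 TPM, each overlapping its neighbour in the order, then *SLC1A4*, *SLC7A6* and *SLC7A11* at 19.6, 16.6 and 3.67 TPM, with no overlap between them. *SLC6A9* was last in both lines, at 0.139 ± 0.0180 TPM in MV4-11 and 0.0629 ± 0.0472 TPM in THP1.

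**Figure D1:**
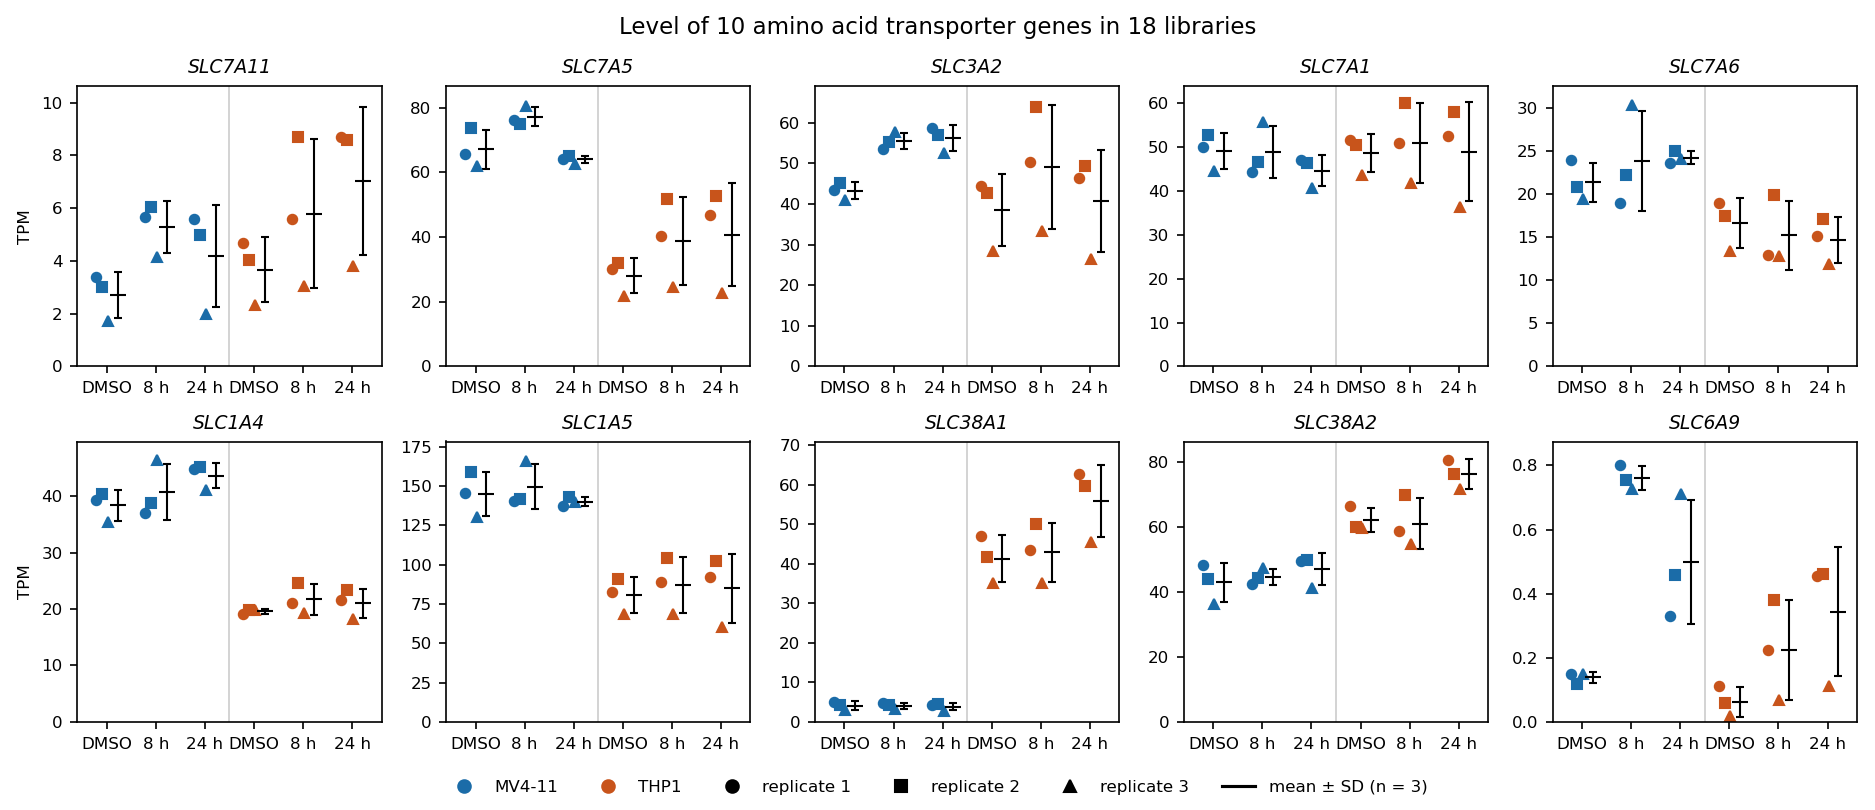
TPM (linear axis from 0, a separate scale per gene) of the 10 transporters in the DMSO, IACS 8 h and IACS 24 h libraries of MV4-11 (blue) and THP1 (orange). Symbols are the 3 replicates and bars the mean ± SD (n = 3), and in THP1 the triangles of replicate 3 are the lowest for 9 of the 10 genes in every group.

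The lines differed most in *SLC38A1*. Its 3 DMSO libraries read 5.14, 4.26 and 3.05 TPM in MV4-11 and 47.0, 41.7 and 35.1 TPM in THP1, a ratio of geometric means of 10.1. The groups lay far apart, and the log2 difference was 3.05 (SE 0.19, limma adjusted p = 2.3e-10). *SLC7A5* went the other way, with 65.8, 73.6 and 61.8 TPM in MV4-11 and 30.3, 31.9 and 21.8 TPM in THP1, a log2 difference of -1.25 (SE 0.26, limma adjusted p = 0.000554). Both small neutral amino acid (ASC) exchangers were also lower in THP1. *SLC1A4* read 39.3, 40.4 and 35.3 TPM in MV4-11 against 19.1, 19.9 and 19.8 TPM in THP1, with a log2 difference of -0.93 (SE 0.12, limma adjusted p = 4.14e-06). *SLC1A5* read 146, 159 and 131 TPM in MV4-11 against 83.0, 91.0 and 68.6 TPM in THP1, a log2 difference of -0.84 (SE 0.18, limma adjusted p = 0.000677). None of these 4 groups of libraries overlapped between the lines. In bulk RNA a gene's level cannot be split into the number of cells that use it and the RNA per cell.

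A gene was called when its limma adjusted p over all genes tested was under 0.05 and its fold change was beyond 1.5-fold in either direction. These 4 genes were the members called between the lines, 1 higher and 3 lower in THP1, of 9 tested, beside 38.3% of all 14915 genes tested. *SLC38A2* was higher in THP1 in every library (48.4, 44 and 36.4 TPM against 66.4, 60.1 and 59.7 TPM), with a log2 difference of 0.53 (SE 0.13, limma adjusted p = 0.00174) that stayed under the fold threshold. Without the first MV4-11 DMSO library it was 0.62 and past it. *SLC7A6* at -0.35, *SLC7A11* at 0.33, *SLC3A2* at -0.19 and *SLC7A1* at -0.01 on the log2 scale did not pass, and the 95% interval of *SLC7A1* ran from -0.36 to 0.33. *SLC6A9*, under 1 TPM in both lines, was not tested in this fit.

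As a share of the summed TPM of both sodium-coupled transporters, *SLC38A1* made up 8.72% ± 0.934 (SD, n = 3) in MV4-11 DMSO cells and 39.8% ± 2.45 in THP1 DMSO cells. That share was 8.37% ± 1.84 at 8 h and 7.59% ± 1.00 at 24 h in MV4-11, and 41.2% ± 1.84 and 42.2% ± 2.86 in THP1, so the 3 groups of a line differed by less than the gap between the lines. The summed TPM of all 10 genes was 414 ± 35.8 in MV4-11 and 339 ± 40.4 in THP1 under DMSO.

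**Figure D2:**
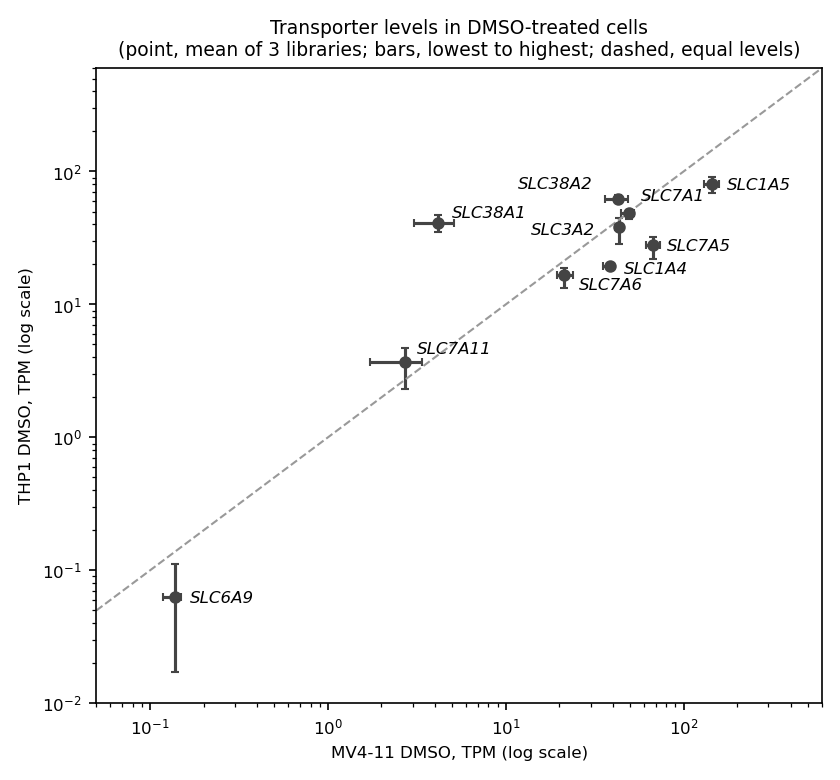
Mean TPM of each transporter in the 3 DMSO libraries of MV4-11 (x, log scale) and THP1 (y, log scale), with bars from the lowest to the highest library and a dashed line of equal levels. *SLC38A1* lies above the line at 4.15 against 41.3 TPM, and *SLC7A5*, *SLC1A4* and *SLC1A5* lie below it.

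Under IACS, *SLC7A11*, the cystine and glutamate exchanger, had the largest log2 fold change of the tested transporters in all 4 comparisons with DMSO when every library was kept. In MV4-11 it read 3.38, 3.01 and 1.72 TPM under DMSO, 5.66, 6.03 and 4.17 TPM at 8 h and 5.57, 5.0 and 2.00 TPM at 24 h. All 3 libraries at 8 h lay above all 3 DMSO libraries, with a ratio of geometric means of 2.01, while at 24 h replicate 3 fell among the DMSO libraries. On log2(TPM + 1) the change was 0.78 (SE 0.28, limma adjusted p = 0.982) at 8 h and 0.43 (SE 0.28, adjusted p = 0.567) at 24 h, so neither passed the test. Leaving out 1 library at a time gave 0.57 to 0.92 at 8 h and 0.22 to 0.79 at 24 h. At 24 h *SLC3A2* was then the largest without the third DMSO library (0.33 against 0.23 for *SLC7A11*), without the first IACS library (0.34 against 0.22) and without the second (0.36 against 0.29). The unadjusted p at 8 h was 0.016 in the limma fit, and with the fold threshold 1 of the 9 tested transporters passed at that unadjusted level, beside 0.672% of 13542 genes. At 24 h 0 of 9 did so, beside 1.99%. With the replicate number as a block and limma's voom on recovered reads, the 8 h change of *SLC7A11* was called at 0.95 (limma adjusted p = 0.0184), beside 17 of 13470 genes. Its 24 h change in that fit was 0.52 (limma adjusted p = 0.0299), under the fold threshold. By the rule given below, the DMSO and 8 h libraries were not paired by number in either line.

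In THP1 *SLC7A11* read 4.68, 4.02 and 2.32 TPM under DMSO, 5.58, 8.70 and 3.06 TPM at 8 h and 8.69, 8.59 and 3.80 TPM at 24 h. Each IACS library lay above the DMSO library of the same number, while the groups overlapped through replicate 3. The log2 fold change was 0.48 (SE 0.34, limma adjusted p = 0.941) at 8 h and 0.75 (SE 0.34, limma adjusted p = 0.578) at 24 h. Leaving out 1 library at a time gave 0.18 to 0.81 at 8 h and 0.52 to 1.08 at 24 h. Without the second IACS library at 8 h *SLC7A5* and *SLC7A11* were level (both 0.18), and without the third DMSO library *SLC7A11* was 0.26. Scaled by the median of ratios its changes were 0.60 and 0.88 (limma adjusted p = 0.633 and 0.083). With the unadjusted p and the fold threshold, 0 of 9 transporters passed at 8 h, beside 0.761% of 13928 genes, and at 24 h *SLC7A11* was again the 1 to pass, beside 2.2%. The THP1 DMSO and 24 h libraries deviated from their group means together by replicate number, and with that number as a block the 24 h change of *SLC7A11* was called at the same log2 fold change (limma adjusted p = 0.0103), beside 2.13% of all genes called in that fit. With the block and voom the 8 h change was called as well (0.74, limma adjusted p = 0.0191), beside 20 of 13865 genes, though the DMSO and 8 h libraries were not paired by the rule. *SLC7A11* is listed as an ATF4 target in the knockout library of the study, for which RNA sequencing of these lines helped to choose the genes, so its direction here is not independent evidence.

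**Figure D3:**
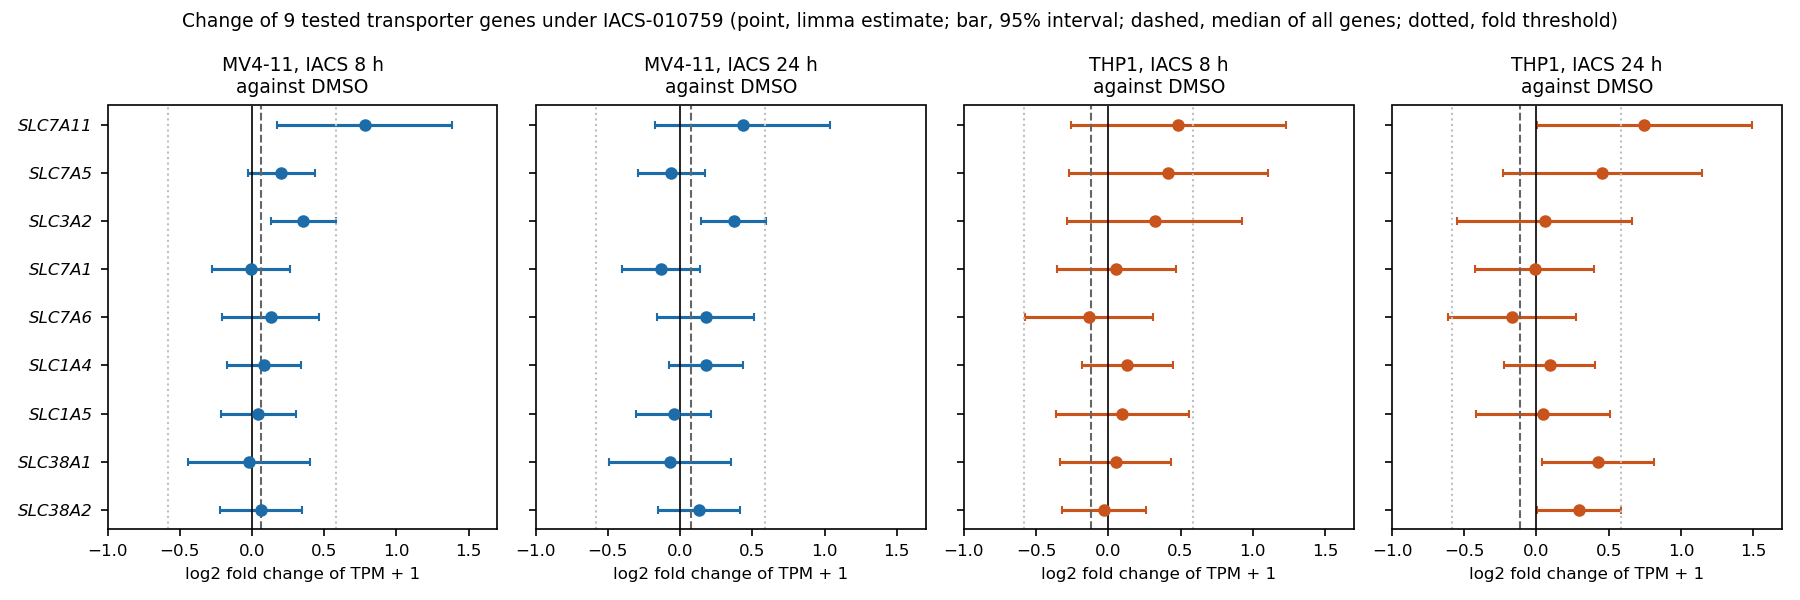
Log2 fold change (limma on log2(TPM + 1), point) with its 95% interval (bar) for the 9 tested transporters in the 4 comparisons of IACS with DMSO. Dashed lines mark the median of all genes and dotted lines the 1.5-fold threshold. *SLC7A11* has the largest estimate in each panel, from 0.43 to 0.78, and no gene passed the test in these fits, which use no replicate block.

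Over the 4 comparisons with DMSO, 0 of the 9 tested transporters were called by limma in the fits without a replicate block. The share called among all genes in these fits was 0.0148% in MV4-11 at 8 h, 0.0886% in MV4-11 at 24 h, 0.0144% in THP1 at 8 h and 0.0431% in THP1 at 24 h, so few genes of any kind passed. With the block *SLC7A11* was called in THP1 at 24 h, beside 2.13% of all genes. With the block and median-of-ratios scaling *SLC7A5* was called there as well, beside 1.38%. Calls in the other fits with a block are given below. At an unadjusted limma p under 0.05 with any fold and no block, 2, 1, 0 and 3 of the 9 transporters passed, in the same order of comparisons, and 2, 2, 7 and 5 did when the values were scaled by the median of ratios, again with 0 called. The share of all genes at that level was not counted, so these counts cannot be weighed against it. They hold both directions, since *SLC7A1* was lower in MV4-11 at 24 h on the scaled values (-0.21). The median log2 fold change of the 9 was 0.08, 0.13, 0.10 and 0.09, against a median of all genes of 0.06 and 0.08 in MV4-11 and of -0.12 at both times in THP1. Relative to all genes, 6, 5, 8 and 8 of the 9 lay above the median, and the transporters' median lay 0.02, 0.05, 0.22 and 0.21 above it. Scaled by the median of ratios the transporters' medians were 0.02, 0.05, 0.24 and 0.24, with those of all genes between 0.0031 and 0.018. The THP1 median at 8 h turned to -0.04 without the second IACS library and to -0.015 without the third DMSO library.

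The heavy chain *SLC3A2* did not pass the test in either line, while its MV4-11 groups were apart. It read 43.5, 45.1 and 41.0 TPM under DMSO, 53.6, 55.4 and 57.7 TPM at 8 h and 58.8, 57.0 and 52.6 TPM at 24 h. Every IACS library lay above every DMSO library. The log2 fold change was 0.36 (95% interval 0.13 to 0.58, limma adjusted p = 0.967) at 8 h and 0.37 (95% interval 0.14 to 0.59, limma adjusted p = 0.186) at 24 h. In THP1 it read 44.5, 42.8 and 28.3 TPM under DMSO, 50.2, 63.9 and 33.3 TPM at 8 h and 46.5, 49.4 and 26.4 TPM at 24 h, with log2 fold changes of 0.32 and 0.06 (0.47 and 0.21 scaled by the median of ratios) and groups that overlapped.

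The light chain *SLC7A5* read 65.8, 73.6 and 61.8 TPM under DMSO in MV4-11, 76.2, 74.9 and 80.5 TPM at 8 h and 64.3, 65.0 and 62.7 TPM at 24 h. The 8 h libraries lay above both other groups without overlap. The log2 fold change against DMSO was 0.20 at 8 h and -0.06 at 24 h, and from 8 h to 24 h it was -0.27 (95% interval -0.50 to -0.03, limma adjusted p = 1). In THP1 it read 30.3, 31.9 and 21.8 TPM under DMSO, 40.3, 51.7 and 24.6 TPM at 8 h and 47.0, 52.7 and 22.6 TPM at 24 h. Each IACS library was above the DMSO library of its number, and the log2 fold changes of 0.42 and 0.46 did not pass (limma adjusted p = 0.941 and 0.667). Scaled by the median of ratios the changes were 0.56 and 0.61 (limma adjusted p = 0.619 and 0.135). With the replicate block the 24 h change of *SLC7A5* had a limma adjusted p = 0.0311 under the fold threshold. With the block and median-of-ratios scaling it was called at 0.61 (limma adjusted p = 0.0173), as was *SLC7A11* (limma adjusted p = 0.0071), beside 1.38% of all genes in that fit.

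*SLC7A6* ranged from 18.9 to 30.3 TPM over the MV4-11 libraries and from 11.8 to 19.9 TPM over those of THP1. Its log2 fold changes were 0.13 and 0.18 in MV4-11 and -0.13 and -0.17 in THP1 (0.0037 and -0.03 scaled by the median of ratios), none past the test. *SLC7A1*, the arginine and lysine transporter, stayed between -0.13 and 0.05 in the 4 comparisons, and its 95% interval at 8 h in THP1 ran from -0.36 to 0.47. On the scaled values its changes were -0.07 and -0.21 in MV4-11 (limma adjusted p = 0.767 and 0.125) and 0.20 and 0.14 in THP1.

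Since the 3 light chains *SLC7A5*, *SLC7A6* and *SLC7A11* all need *SLC3A2*, their summed TPM was divided by that of *SLC3A2* in each library, a ratio in which the share of the noncoding RNAs cancels. In MV4-11 it was 2.14, 2.16 and 2.03 under DMSO, 1.88, 1.86 and 1.99 at 8 h and 1.59, 1.67 and 1.69 at 24 h. The 3 groups did not overlap, and the ratio was lower at each time than under DMSO. In THP1 it was 1.21, 1.25 and 1.33 under DMSO, 1.17, 1.26 and 1.22 at 8 h and 1.52, 1.58 and 1.45 at 24 h. Here the 24 h libraries lay above both other groups, which overlapped.

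The mean ratio was thus 0.46 lower at 24 h than under DMSO in MV4-11 (2.11 ± 0.0711 against 1.65 ± 0.0529, SD, n = 3) and 0.26 higher in THP1 (1.26 ± 0.0586 against 1.52 ± 0.0686). Each of these has an exact two-sided permutation p = 0.1, the smallest that 3 against 3 libraries allow (0.125 after Benjamini-Hochberg adjustment over 5 comparisons of the ratio). The difference between the lines in the 24 h change was 0.716, and permuting the DMSO and 24 h labels within each line gave an exact two-sided p = 0.005, the smallest of 400 arrangements. That test takes no change in either line as its null. At 8 h the difference between the lines was 0.148 (exact permutation p = 0.185). With 2 such tests the Benjamini-Hochberg adjusted values were 0.01 and 0.185. Taking the 3 differences between same-numbered libraries in place of the groups, the exact permutation p of the 24 h difference between the lines was 0.1, again the smallest possible. Under DMSO the ratio was 0.85 lower in THP1 than in MV4-11. The absolute value of the ratio rests on the length set for each gene.

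**Figure D4:**
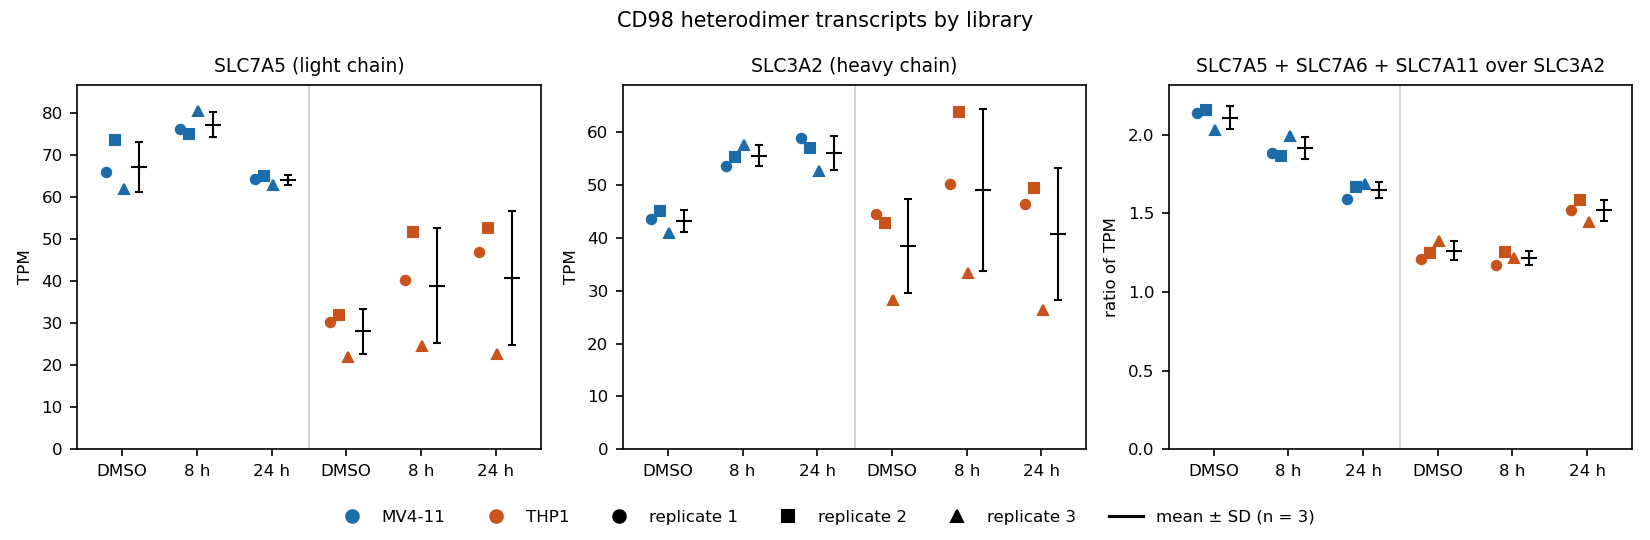
TPM of *SLC7A5* (left) and *SLC3A2* (middle) and the ratio of the summed TPM of *SLC7A5*, *SLC7A6* and *SLC7A11* to *SLC3A2* (right), all from 0, by line and treatment. Symbols are replicates and bars the mean ± SD (n = 3), and the mean ratio is 2.11 under DMSO and 1.65 at 24 h in MV4-11, and 1.26 and 1.52 in THP1.

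Both sodium-coupled transporters had larger estimates in THP1 at 24 h than at 8 h, and neither passed the test on TPM. *SLC38A2* read 66.4, 60.1 and 59.7 TPM under DMSO, 58.6, 69.7 and 54.8 TPM at 8 h and 80.7, 76.3 and 71.6 TPM at 24 h in THP1. Its 24 h libraries lay above all others, with a log2 fold change of 0.29 against DMSO (SE 0.13, limma adjusted p = 0.578). *SLC38A1* read 47.0, 41.7 and 35.1 TPM under DMSO, 43.6, 50.0 and 35.2 TPM at 8 h and 62.6, 59.7 and 45.5 TPM at 24 h in THP1, with log2 fold changes of 0.05 at 8 h and 0.43 at 24 h (SE 0.18, limma adjusted p = 0.552). Scaled by the median of ratios the 24 h changes were 0.58 for *SLC38A1* (limma adjusted p = 0.0148) and 0.44 for *SLC38A2* (limma adjusted p = 0.0476), both under the fold threshold, and the 8 h changes were 0.19 and 0.11. In MV4-11 the log2 fold changes of *SLC38A1* were -0.02 and -0.07 and those of *SLC38A2* 0.06 and 0.13.

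Neither ASC exchanger passed the test in any of the 4 comparisons. *SLC1A5* had log2 fold changes of 0.04 and -0.05 in MV4-11 and of 0.10 and 0.05 in THP1, and *SLC1A4* of 0.08 and 0.18 in MV4-11 and of 0.13 and 0.09 in THP1. On the scaled values the THP1 changes were 0.24 and 0.20 for *SLC1A5* and 0.27 and 0.24 for *SLC1A4*. The 3 MV4-11 libraries at 24 h (44.7, 45.1 and 41.0 TPM) lay above the 3 DMSO libraries for *SLC1A4*, while its groups overlapped in the other 3 comparisons. The 95% intervals of *SLC1A5* reached at most 0.56, so a change past the fold threshold lay outside them in all 4 comparisons on TPM.

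*SLC6A9*, the glycine transporter, fell below the filter of 1 TPM in both lines and is given by its reads. In MV4-11 it had 8, 7 and 10 reads under DMSO, 51, 41 and 35 reads at 8 h and 17, 23 and 39 reads at 24 h, or 0.150, 0.118 and 0.149 TPM, 0.802, 0.755 and 0.727 TPM and 0.330, 0.458 and 0.710 TPM. Every IACS library lay above every DMSO library. The 8 h libraries lay above the 24 h libraries in TPM, by 0.727 against 0.710 TPM where they came closest, while in reads the 2 groups overlapped (35 against 39). In THP1 it had 5, 3 and 1 reads under DMSO, 15, 18 and 5 reads at 8 h and 25, 22 and 8 reads at 24 h, with an overlap at 8 h and none at 24 h. On these reads limma's voom gave log2 fold changes of 2.33 (SE 0.36, adjusted p = 0.0609) and 1.64 (adjusted p = 0.0472) in MV4-11 at 8 h and 24 h and of 1.78 (adjusted p = 0.67) and 2.40 (adjusted p = 0.0822) in THP1. The MV4-11 change at 24 h was called there, beside 0.965% of all genes tested on reads, and the change at 24 h in THP1 was called when the replicate number was a block (limma adjusted p = 0.00162), beside 2.51%. *SLC6A9* was kept in these fits by name, while the other genes behind these shares had to pass the filter. With so few reads the counting error is large, and on log2(TPM + 1) with no filter the 4 changes were 0.63, 0.39, 0.20 and 0.33, none past the test.

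Counted over all 10 genes, 4 had IACS libraries all above the DMSO libraries in MV4-11 at 8 h (*SLC7A11*, *SLC7A5*, *SLC3A2* and *SLC6A9*), beside 7.13% of the genes tested, 3 at 24 h (*SLC3A2*, *SLC1A4* and *SLC6A9*), beside 19.4%, 0 in THP1 at 8 h, beside 0.704%, and 2 in THP1 at 24 h (*SLC38A2* and *SLC6A9*), beside 3.32%. None had its IACS libraries all below. *SLC6A9* is in 3 of these counts but, being under the filter of 1 TPM, is not among the genes behind the shares. At 24 h in MV4-11 the share of the transporters was thus near that of all genes.

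From 8 h to 24 h of IACS no transporter was called in MV4-11 (0.0% of all genes) or THP1 (0.00718%), by limma over the 9 libraries of each line. 1 of the 9 passed an unadjusted p under 0.05 in each line, *SLC7A5* in MV4-11 at -0.27 and *SLC38A2* in THP1 at 0.32. Without a replicate block limma called no transporter for a difference of the IACS change between the lines at 8 h or at 24 h, beside 0.00796% of 12555 genes at each time, and 0 had an unadjusted p under 0.05 on TPM. The largest such differences at 24 h were 0.52 for *SLC7A5* (95% interval -0.23 to 1.27) and 0.50 for *SLC38A1* (95% interval -0.07 to 1.06), both higher in THP1, where the median of all genes was -0.20. Scaled by the median of ratios, 5 of the 9 had an unadjusted p under 0.05 at 24 h and 2 at 8 h, with 0 called. The shares of all genes at this unadjusted level were not counted. With the block and that scaling *SLC7A5* (0.74, limma adjusted p = 0.032) and *SLC38A1* (0.71, limma adjusted p = 0.00567) were called for the 24 h difference, beside 0.973% of all genes, and with the block and voom as well (0.77 and 0.75, limma adjusted p = 0.0146 and 0.00447), beside 1.33%. By the rule that all 3 correlations exceed 0.1, replicate numbers paired the DMSO and 24 h libraries of THP1 (0.146, 0.157 and 0.324). In MV4-11 the correlations were 0.269, 0.066 and 0.441, so the rule failed there through 1 value.

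*ATF4* itself read 181, 190 and 166 TPM under DMSO, 213, 223 and 256 TPM at 8 h and 257, 239 and 261 TPM at 24 h in MV4-11, with no overlap between IACS and DMSO. In THP1 it read 158, 142 and 116 TPM, 194, 217 and 135 TPM and 241, 243 and 138 TPM. The log2 fold changes were 0.36 and 0.49 in MV4-11 (limma adjusted p = 0.982 and 0.132) and 0.37 and 0.54 in THP1 (limma adjusted p = 0.941 and 0.563), and with the replicate block the THP1 change at 24 h had a limma adjusted p = 0.0103, under the fold threshold. *ATF4* is controlled in large part through translation, which these data do not measure. Of *ATF4* and 7 partner factors, 7 were tested and none was called in the 4 comparisons. *DDIT3* (CHOP) was the largest of them in MV4-11 at both times (0.60 and 0.55) and in THP1 at 8 h (0.71). The smallest were *ATF2* at 8 h in both lines (0.06 and -0.19), *ATF5* in MV4-11 at 24 h (0.07) and *JUN* in THP1 at 24 h (-0.14).

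Among 22 ATF4 targets that are not transporters, 1 of 21 tested was called higher in MV4-11 at 8 h, 2 of 21 at 24 h, and 0 of 20 in THP1 at either time, with none lower. The shares called among all genes were 0.0148%, 0.0886%, 0.0144% and 0.0431%. *CHAC1*, which degrades glutathione, rose from 0.982 ± 0.109 to 4.49 ± 0.561 TPM at 8 h (log2 fold change 1.47, limma adjusted p = 0.00315) and to 3.16 ± 0.291 TPM at 24 h (1.07, limma adjusted p = 0.0212) in MV4-11. *PHGDH*, the first enzyme of serine synthesis, rose from 1.87 ± 0.309 to 4.85 ± 0.387 TPM at 24 h (1.03, limma adjusted p = 0.0334). In THP1 the largest estimates were 1.16 for *CHAC1* at 8 h and 1.37 for *ASNS*, asparagine synthetase, at 24 h, neither called (limma adjusted p = 0.941 and 0.0658). *ALDH18A1*, which makes the precursor of proline, had the smallest estimate in each comparison, from -0.34 to -0.15. The list's medians were 0.50, 0.30, 0.20 and 0.31, each above those of the transporters. The unadjusted p with the fold threshold was passed by 9 of 21, 3 of 21, 4 of 20 and 5 of 20 of its tested genes. The transporters had 1, 0, 0 and 1 of 9, and the shares of all genes were 0.672%, 1.99%, 0.761% and 2.2%. Several genes of this list, *CHAC1*, *PHGDH* and *ASNS* among them, are in the same knockout library, so their direction here is not independent evidence.

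**Figure D5:**
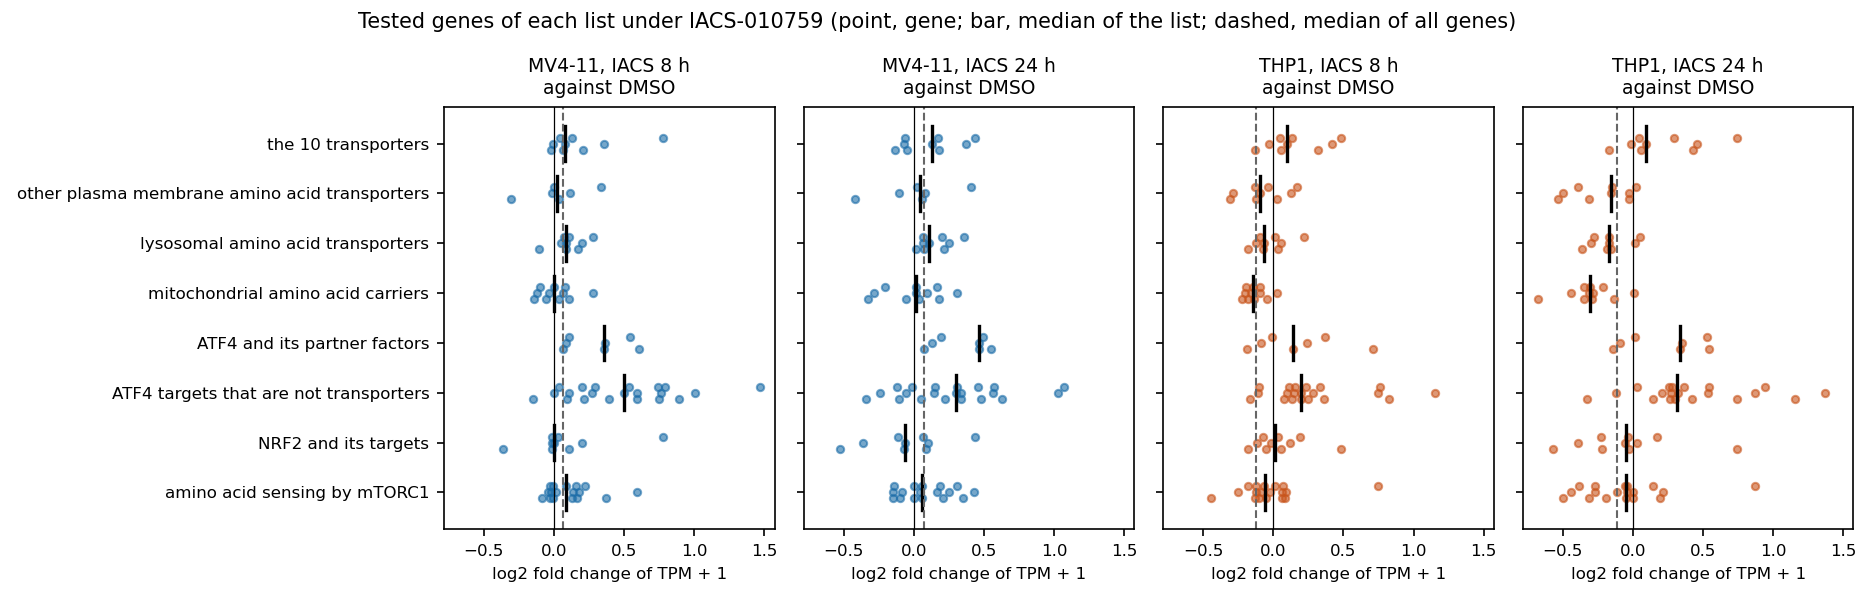
Log2 fold change of each tested gene (point) of 8 lists in the 4 comparisons of IACS with DMSO, with the list's median (bar) and the median of all genes (dashed), on log2(TPM + 1). The median of the ATF4 targets that are not transporters lies at 0.20 to 0.50 and that of the 9 tested transporters at 0.08 to 0.13.

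The lists of other transporters, most of them for amino acids, had no calls under IACS. In these lists *SLC29A3* carries nucleosides, and *SLC25A39* and *SLC25A40* carry glutathione. Of 23 further plasma membrane transporters 6 were tested in MV4-11 and 9 in THP1, with medians of 0.02 and 0.04 and of -0.10 and -0.16. *SLC43A2* (LAT4) was the largest in MV4-11 (0.33 and 0.41) and *SLC38A5* (SNAT5) the smallest (-0.31 and -0.42), while in THP1 *SLC1A1* (0.17) and *SLC7A2* (0.02) were the largest and *SLC1A3* the smallest (-0.31 and -0.53) at 8 h and 24 h. Of the 10 lysosomal transporters 9 were tested, with medians of 0.09 and 0.11 in MV4-11 and of -0.07 and -0.17 in THP1. *SLC15A3* was the largest in MV4-11 (0.28 and 0.36), and *SLC38A7* at 8 h (0.22) and *SLC38A9* at 24 h (0.05) in THP1, and the smallest were *SLC29A3* (-0.11) and *SLC36A1* (0.02) in MV4-11 and *SLC36A1* (-0.18) and *PQLC2* (-0.36) in THP1. Of the 12 mitochondrial carriers 11 were tested, with medians of -0.0016 and 0.02 in MV4-11 and of -0.15 and -0.31 in THP1. *SFXN3* was the largest in MV4-11 (0.28 and 0.31) and *SLC25A22* (0.03) and *SLC25A40* (0.01) in THP1, and *SFXN1* (-0.15), *SLC25A15* (-0.33), *SFXN1* (-0.23) and *SLC25A39* (-0.68) were the smallest in the 4 comparisons in order.

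Between the DMSO groups 5 of the 9 further plasma membrane transporters tested were called, beside 38.3% of all genes tested. *SLC7A7* (y+LAT1), which like *SLC7A6* pairs with *SLC3A2*, was higher in THP1 at 7.13 ± 0.915 TPM than in MV4-11 at 0.802 ± 0.198 TPM (log2 difference 2.17, limma adjusted p = 6.29e-10). *SLC6A6*, the taurine transporter, was lower in THP1 at 10.3 ± 1.83 TPM than in MV4-11 at 28.6 ± 3.57 TPM (-1.39, limma adjusted p = 2.15e-06). With *SLC7A7*, *SLC7A8* and *SLC7A10* counted among the light chains, the ratio to *SLC3A2* under DMSO was 0.66 lower in THP1 in place of 0.85.

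On unscaled TPM without a replicate block, no gene was called under IACS in the lists for other regulators of these transporters. *SLC7A11*, which is in the NRF2 list, was called in fits with a block, as given above. NRF2 also drives *SLC7A11*, and of 11 NRF2 genes, *SLC7A11* among them, 9 were tested in MV4-11 and 10 in THP1, none called, with medians of 0.00 and -0.06 and of 0.01 and -0.05. *SLC7A11* was the largest in each comparison, and *GCLM* (-0.36 and -0.18 at 8 h in MV4-11 and THP1) and *NQO1* (-0.53 at 24 h in MV4-11) were the smallest in those 3 comparisons. Of 18 genes of amino acid sensing by mTORC1, 17 and 18 were tested and none was called, with *SESN2* the largest in MV4-11 at 8 h (0.59) and in THP1 at both times (0.75 and 0.87), *CASTOR1* in MV4-11 at 24 h (0.43), *LAMTOR5* (-0.09) and *LAMTOR2* (-0.15) the smallest in MV4-11 and *SESN3* in THP1 (-0.44 and -0.50). *MYC*, which also drives several of these transporters, was lower in THP1 than in MV4-11 under DMSO (77.4 against 201 TPM, log2 difference -1.37, limma adjusted p = 6.85e-06), and its log2 fold changes under IACS lay between -0.18 and 0.01. None of the 7 genes of the *MYC* family or of the 7 glucose transporters was called under IACS. *MXI1* (0.16), *MLXIP* (0.27), *MYC* (0.01) and *MXI1* (0.22) had the largest estimates of the *MYC* family in the 4 comparisons, and *MYC* (-0.05 and -0.04), *MAX* (-0.16) and *MLX* (-0.28) the smallest. Of the glucose transporters *SLC2A3* (0.16, 0.20 and 0.57) and in MV4-11 at 24 h *SLC2A5* (0.27) were the largest, and *SLC2A5* (0.02 and -0.30 at 8 h), *SLC2A1* (-0.08) and *SLC2A8* (-0.47) the smallest.

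Across the 18 libraries, with log2(TPM + 1) centred within each line, the genes most like *SLC7A5*, among the 8844 whose mean TPM was 5 or more in both lines, were 3 cytosolic tRNA synthetases, *YARS* (Pearson r = 0.950), *GARS* (0.949) and *AARS* (0.936). On median-of-ratios values they had r of 0.955, 0.871 and 0.866. For *SLC3A2* they were *TMEM121B* (0.902), *PPP1R15A* (0.901), a regulatory subunit of the eIF2α phosphatase, and *SRXN1* (0.897), and 0.807, 0.812 and 0.660 after scaling. For *SLC7A11* they were *CCPG1* (0.953), *IGF2R* (0.930) and *ARHGEF12* (0.919), and 0.891, 0.616 and 0.787 after scaling. These points share their libraries, treatments and replicate numbers, and the values are a description. On the scaled values the correlation with *ATF4* was highest for *SLC6A9* (0.768), *SLC3A2* (0.740), *SLC7A5* (0.735) and *SLC7A11* (0.705), and lowest for *SLC7A1* (0.286) and *SLC7A6* (0.0489).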

How the data were processed

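The authors isolated total RNA, made TruSeq libraries, sequenced them on a NovaSeq instrument, and trimmed, aligned (GRCh38) and counted the reads in CLC Genomics Workbench v20. The authors deposited TPM per gene symbol. The annotation release and the use of strand in counting are not given in the sources used here. 0 columns were left out. The 3 libraries of a group are independent replicates per the labels, which do not say more about their source, so p-values may in part measure technical spread.

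log2(TPM + 1) was tested by limma 3.58.1 (R 4.3.3, eBayes with a variance trend) over genes averaging 1 TPM or more, in 1 fit per line, and in 1 fit of 18 libraries between lines, with Benjamini-Hochberg adjustment over all genes tested. The scripts were tested on simulated data. Reads were recovered with a tolerance of 0.02, using lengths from GENCODE release 44 or a search, and served for depth and for voom. Fold changes of genes with a low TPM are understated by the pseudocount of 1. Intervals are 95% limma intervals.

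All 10 members are named, with the ends and calls of each list (1 end is not reported here), *ATF4*, and the 3 genes most like each of *SLC7A11*, *SLC7A5* and *SLC3A2*. The members and lists were chosen with earlier results of these data known. The study tested TPM by Kruskal-Wallis and Dunn's tests, and limma was used in their place. Median-of-ratios scaling, other pseudocounts and filters, a replicate block and leaving out libraries were alternatives. TPM without the 5 noncoding RNAs, voom, the other tests of the chain ratio and its comparison between lines were added after the data were seen. The replicate numbers come from the labels. By correlation across genes of the deviations of same-numbered libraries from their group means, all 3 pairs exceeded 0.1 for THP1 DMSO and 24 h (0.146, 0.157 and 0.324), THP1 8 h and 24 h (0.183, 0.277 and 0.357) and MV4-11 8 h and 24 h (0.110, 0.408 and 0.441), and these were taken as paired.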

Additional observations from a re-analysis of the deposited data

Results flagged for a closer look

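The ratio of the 3 light chain transcripts (*SLC7A5*, *SLC7A6* and *SLC7A11*) to *SLC3A2* stood out because its change at 24 h of IACS differed between the lines, by 0.716 (THP1 minus MV4-11, exact two-sided permutation p = 0.005, the smallest of 400 arrangements of the DMSO and 24 h labels within each line). The null of that test is no change in either line, not an equal change in both, and it does not use the replicate numbers, by which the THP1 libraries were paired. Tested on the differences within numbers, the exact permutation p was 0.1, the smallest that 3 against 3 allow and not past the threshold. The difference from the DMSO library of the same number was -0.55, -0.49 and -0.34 in MV4-11 and 0.31, 0.34 and 0.12 in THP1, so all 3 went down in one line and all 3 up in the other. The ratio was formed with values of these genes already known, and *SLC7A5* on its own was called for a difference of its 24 h change between the lines in the fits with the block and median-of-ratios scaling or voom and not without the block, while *SLC3A2* was not called in either.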

How the results depend on the processing

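Among the alternatives run, the count of transporters called between the DMSO groups was 4 or 5, with 5 without the first MV4-11 DMSO library, where *SLC38A2* passed the fold threshold (0.62), in TPM without the 5 noncoding RNAs and with no fold threshold. The count of transporters called under IACS, 0 in each comparison, moved in these cases. With the unadjusted p and the fold threshold it was 1 for the 8 h change of MV4-11 and 1 for the 24 h change of THP1. With the replicate block it was 1 in THP1 at 24 h, with the block and median-of-ratios scaling 2, and with the block and voom 3, and for the 24 h change between the lines these last 2 fits gave 2 and 2 (*SLC7A5* and *SLC38A1* in each). The block with voom also gave 1 for each time in MV4-11 and 1 in THP1 at 8 h. These were *SLC7A11* at 8 h in both lines, beside 17 of 13470 genes in MV4-11 and 20 of 13865 in THP1, and *SLC6A9* in MV4-11 at 24 h, beside 221 of 13470. Voom alone gave 1 in MV4-11 at 24 h, *SLC6A9*, beside 130 of 13470 genes. The block changed no other count. The other alternatives left the counts at 0, and leaving out any 1 library did so too. Over all genes the count called ranged over the settings that kept every library of the groups compared from 0 to 17 for MV4-11 at 8 h (2 as reported), 2 to 221 for MV4-11 at 24 h (12), 1 to 20 for THP1 at 8 h (2) and 4 to 348 for THP1 at 24 h (6). Leaving out 1 library gave medians of the transporters of 0.02 to 0.15 and 0.02 to 0.20 in MV4-11 at 8 h and 24 h, of -0.04 to 0.21 and 0.02 to 0.34 in THP1, and of -0.30 to 0.014 between the DMSO groups, shifts within 1 SD of the replicates.

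Small log2 fold changes turned sign. Under median-of-ratios scaling these were in MV4-11 at 8 h *SLC1A5* (-0.018) and *SLC38A2* (-0.00044), *SLC7A6* (0.0037) and *SLC38A2* (0.11) for the 8 h change of THP1, and *SLC7A1* (0.14) for its 24 h change. Leaving out libraries one at a time gave in MV4-11 at 8 h -0.11 to 0.055 for *SLC7A1*, -0.051 to 0.27 for *SLC7A6*, -0.014 to 0.14 for *SLC1A4*, -0.033 to 0.11 for *SLC1A5*, -0.18 to 0.12 for *SLC38A1* and -0.050 to 0.15 for *SLC38A2*, and at 24 h -0.12 to 0.0043 for *SLC7A5*, -0.12 to 0.023 for *SLC1A5* and -0.23 to 0.10 for *SLC38A1*. In THP1 the ranges were for the 8 h change -0.070 to 0.19 for *SLC7A1*, -0.039 to 0.26 for *SLC1A5*, -0.065 to 0.18 for *SLC38A1* and -0.13 to 0.044 for *SLC38A2*, and for the 24 h change -0.15 to 0.34 for *SLC3A2*, -0.15 to 0.18 for *SLC7A1* and -0.10 to 0.27 for *SLC1A5*. Between the DMSO groups it gave -0.30 to 0.014 for *SLC3A2* and -0.082 to 0.059 for *SLC7A1*. With *SLC7A7*, *SLC7A8* and *SLC7A10* the difference of the chain ratio between the DMSO groups was -0.66. The cause of these shifts was not tested. Depth limits *SLC6A9*, at 1 to 51 reads per library.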
